A study of Limonium bicolor with 5 samples.

Results

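The enzymes of carbon fixation and photorespiration were represented by 8 genes, which were followed through leaf development in Limonium bicolor, a plant that excretes salt through glands on its leaves. The 8 genes were chosen by the Arabidopsis locus paired with them, and all 8 were found among the 18327 genes of the deposited table, 1 row each. They are carbonic anhydrase 1 (CA1, AT3G01500), the rubisco small chain 1A (RBCS1A, AT1G67090), rubisco activase (RCA, AT2G39730), phosphoribulokinase (PRK, AT1G32060), the A and B subunits of the chloroplast glyceraldehyde-3-phosphate dehydrogenase (GAPA1, AT3G26650, and GAPB, AT1G42970), and the P-protein 2 and H-protein of glycine decarboxylase (GLDP2, AT2G26080, and GLDH1, AT2G35370). Descriptions come from the table and symbols from general knowledge of Arabidopsis, so an isoform name says which Arabidopsis locus was matched, not that the Limonium gene is its direct counterpart. Poly(A) RNA was sequenced from the first true leaves of plants in tissue culture, at 5 stages. The labels name 2 lanes per stage, called biological replicates there. The deposited values hold 1 column per stage, called 1 library below, so the lanes cannot be compared. Stage A was the undifferentiated leaf, from a pool of about 5000 leaves. Stage B had differentiated salt glands (4000 leaves), stage C differentiated stomata (2000 leaves), stage D a differentiated epidermis (1000 leaves), and stage E was the mature leaf (1000 leaves). No genotype, strain or treatment beyond the stage is given in the labels.

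Rubisco joins carbon dioxide to ribulose-1,5-bisphosphate in the chloroplast, and the Calvin cycle uses ATP and NADPH to turn the product into triose phosphate and to rebuild the acceptor. Rubisco also accepts oxygen, and the 2-phosphoglycolate formed then is salvaged by photorespiration, a route through chloroplast, peroxisome and mitochondrion in which glycine decarboxylase releases carbon dioxide and ammonia. In leaves, most transcripts of these enzymes are known from mesophyll, the green tissue inside the leaf.

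Values are RPM, which scale reads to library size and are not divided by gene length, so levels are compared between stages of the same gene and not between genes. Each library held between 5939374 reads (stage A) and 16556653 reads (stage B). With 1 column of values per stage no difference below has a replicate check. A gene was called changed by size alone, where its log2(RPM + 1) values in the 2 stages lay 1 or more apart and the higher stage reached 5 RPM; "rose" and "fell" are used only of such genes. Fold values are ratios of RPM, and the interval beside each is an exact 95% interval from the read counts (Clopper-Pearson), which covers counting error only. Whole leaves were sequenced, so fewer cells of a type and less RNA per cell cannot be told apart. Stage C stood apart from its neighbours, with a Pearson correlation across 18165 genes of 0.786 with stage B and 0.763 with stage D, against 0.864 between stages D and B. Of all reads of stage C, 40.4% fell on genes paired with Arabidopsis chromosome 1, against 24.4% to 28.3% in the other stages, so comparisons with stage C are given beside the direct comparison of stage D with stage B.

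Together the 8 genes took 0.128% of the reads at stage A (95% exact binomial interval 0.125% to 0.130%), 0.354% at B, 1.71% at C, 4.44% at D (4.43% to 4.45%) and 1.45% at E. All 8 were lowest in stage A. Of the 8, 6 were highest in stage D, while RBCS1A and GLDP2 were highest in stage C. The span between the lowest and the highest stage differed widely among them. Stage D exceeded stage A 305-fold for CA1 (245 to 386) and 78.8-fold for RCA (75.4 to 82.5). For the other 6 genes the same ratio lay between 11.6-fold for GLDH1 (9.69 to 14.0) and 21.5-fold for GAPB (18.8 to 24.8).

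**Figure D1:**
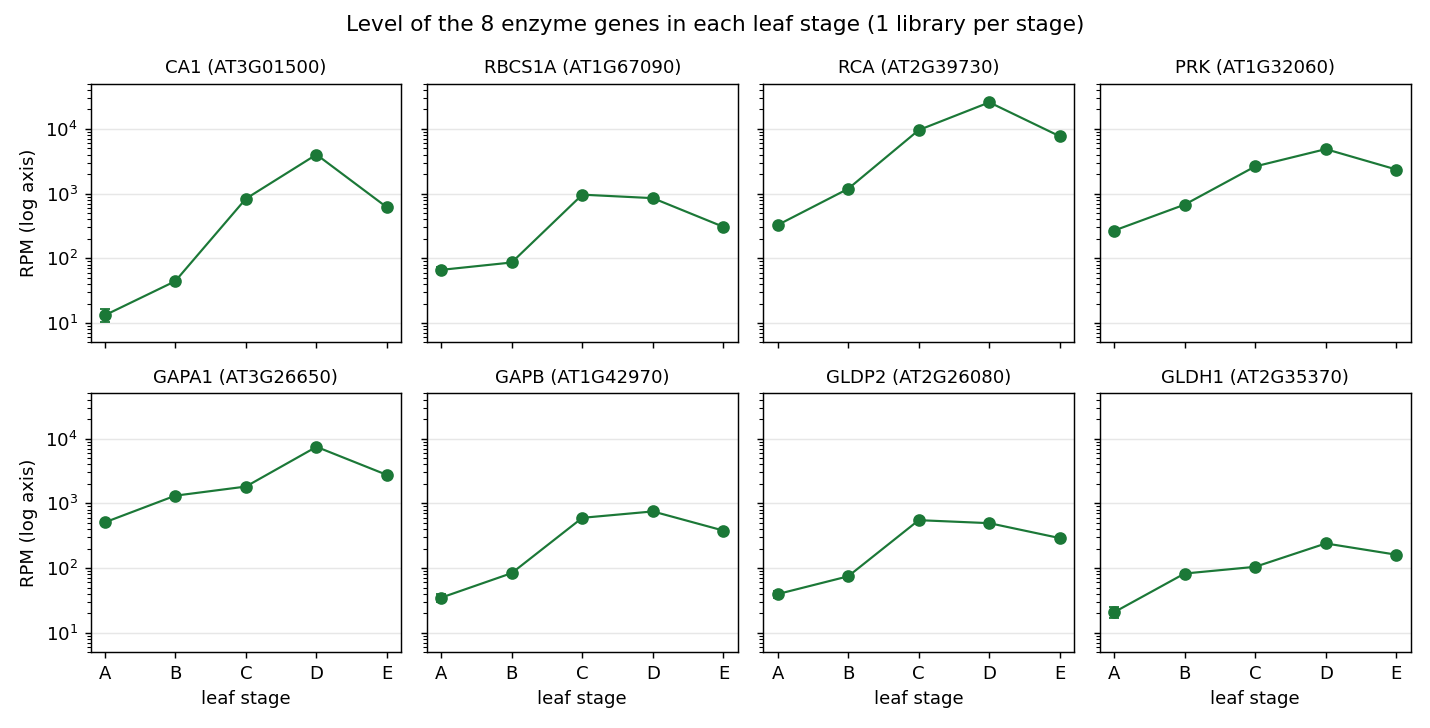
RPM (log axis) of each of the 8 genes against leaf stage, 1 library per stage, with exact 95% Poisson intervals that are mostly smaller than the points. All 8 curves start at their lowest value in stage A, and the CA1 curve spans the widest range, with 13.1 RPM at A and 4009 RPM at D.

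Carbon dioxide enters the stroma in equilibrium with bicarbonate, which carbonic anhydrases interconvert. CA1 had 13.1 RPM at A, 44.3 at B, 832 at C, 4009 at D and 611 at E. These 5 levels were separated by more than counting error, and stage D stood well above all others. Among the 8 genes CA1 had the largest ratio of stage C to stage B, of stage D to stage C and of stage E to stage A: it was 18.8-fold higher in stage C than in stage B (17.4 to 20.3) and 46.6-fold higher in stage E than in stage A (37.3 to 59.0). It also lost most by the mature leaf, where stage E was 6.56-fold lower than stage D (6.41 to 6.71).

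The small subunit of rubisco is encoded in the nucleus by several near-identical genes. RBCS1A had 66.2 RPM at A, 86.1 at B, 962 at C, 850 at D and 306 at E. Stage B was 1.3-fold above stage A (1.16 to 1.46), under the rule, and stage C was 11.2-fold above stage B (10.6 to 11.8). Rubisco activase, the ATP-driven remodelling protein that frees rubisco of inhibitory sugar phosphates, had 326 RPM at A, 1185 at B, 9581 at C, 25701 at D and 7656 at E. In stage D it had more reads than any other gene of the table, 2.57% of the library, a share that also depends on transcript length. Its 3.36-fold lower value in stage E than in stage D (3.33 to 3.38) left it 23.5-fold above stage A (22.4 to 24.6).

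Phosphoribulokinase makes the acceptor of carbon dioxide, ribulose-1,5-bisphosphate. PRK had 267 RPM at A, 674 at B, 2627 at C, 4863 at D and 2351 at E, with every stage up to D above the one before it. GAPA1 and GAPB encode the subunits of the enzyme that reduces 1,3-bisphosphoglycerate with NADPH. GAPA1 had 507 RPM at A, 1314 at B, 1817 at C, 7471 at D and 2745 at E. GAPB had 34.9 RPM at A, 83.5 at B, 597 at C, 750 at D and 379 at E. Both subunits rose in stage B against stage A, by 2.59-fold for GAPA1 (2.49 to 2.69) and 2.40-fold for GAPB (2.07 to 2.79), and the 2 genes then parted in stage C. As single loci, GAPB rose 7.15-fold in stage C against stage B (6.76 to 7.58), whereas GAPA1 differed only 1.38-fold (1.36 to 1.41). These intervals do not overlap, but they cover counting error only. GAPA1 held 18.6% of the reads of the 2 GAPA loci in stage C, against 56.5% to 61.8% in the other stages. Summed, the 2 GAPA loci rose 4.25-fold at this step, so the A subunit passed the rule as GAPB did. In stage D against stage B the ratios were 5.69-fold for GAPA1 (5.61 to 5.77) and 8.98-fold for GAPB (8.49 to 9.50).

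In photorespiration the P-protein of glycine decarboxylase binds and decarboxylates glycine, and the H-protein carries the remaining aminomethyl group on its lipoyl arm to the other subunits. GLDP2 had 39.6 RPM at A, 74.5 at B, 550 at C, 494 at D and 290 at E. GLDH1 had 20.7 RPM at A, 82.3 at B, 105 at C, 240 at D and 161 at E. As single loci they passed the rule at different steps: GLDH1 rose 3.97-fold in stage B against stage A (3.30 to 4.82) and GLDP2 differed 1.88-fold there (1.64 to 2.18), while in stage C against stage B GLDP2 rose 7.38-fold (6.95 to 7.84) and GLDH1 differed 1.27-fold (1.18 to 1.37). Summed over all loci of each subunit, both passed at the same step: in stage B against stage A the P-protein differed 1.56-fold (1.43 to 1.71) and the H-protein 1.57-fold (1.47 to 1.67), neither past the rule, and in stage C against stage B they rose 4.63-fold (4.44 to 4.83) and 2.13-fold (2.06 to 2.21). GLDP2 and GLDH1 had the smallest differences of the 8 genes in the mature leaf: stage E was 1.70-fold lower than stage D for GLDP2 (1.64 to 1.77) and 1.49-fold lower for GLDH1 (1.42 to 1.58).

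Stage B against stage A concerned the leaf in which salt glands had appeared. Of the 8 genes, 6 rose and 0 fell, where 7.47% of 18165 genes tested were called higher and 3.1% lower. The median log2 difference of the 8 genes was 1.35, against 0.10 for all genes. The 6 were CA1, RCA, PRK, GAPA1, GAPB and GLDH1, with ratios between 2.40-fold and 3.97-fold. RBCS1A and GLDP2 did not reach the 2-fold rule. With median-of-ratios scaling, which sets the median gene to no change, the same 6 genes were called, where 5.36% of all genes were called higher. A 4-fold rule called 0 of the 8, where it called 0.589% of all genes higher.

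In stage C against stage B, the step at which stomata had appeared, 6 of the 8 genes rose and 0 fell, where 15.3% of all genes were called higher and 23.0% lower. The median log2 difference was 2.85, against -0.24 for all genes. CA1, RBCS1A, RCA, PRK, GAPB and GLDP2 rose, and GAPA1 and GLDH1 did not pass the rule. In stage D against stage C, for the epidermis, 4 of the 8 rose and 0 fell, where 17.4% of all genes were called higher and 19.5% lower. These were CA1, at 4.82-fold (4.73 to 4.91), GAPA1, at 4.11-fold (4.06 to 4.17), RCA, at 2.68-fold (2.67 to 2.70), and GLDH1, at 2.30-fold (2.16 to 2.44). RBCS1A and GLDP2 had log2 differences of -0.18 and -0.15 in stage D against stage C. Scaling within the loci of each Arabidopsis chromosome turned these to 0.45 and 0.16, and it also brought PRK past the rule, so that 5 of the 8 rose, where 18.8% of all genes were called higher. A 4-fold rule kept CA1 and GAPA1, where it called 6.46% of all genes higher.

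**Figure D2:**
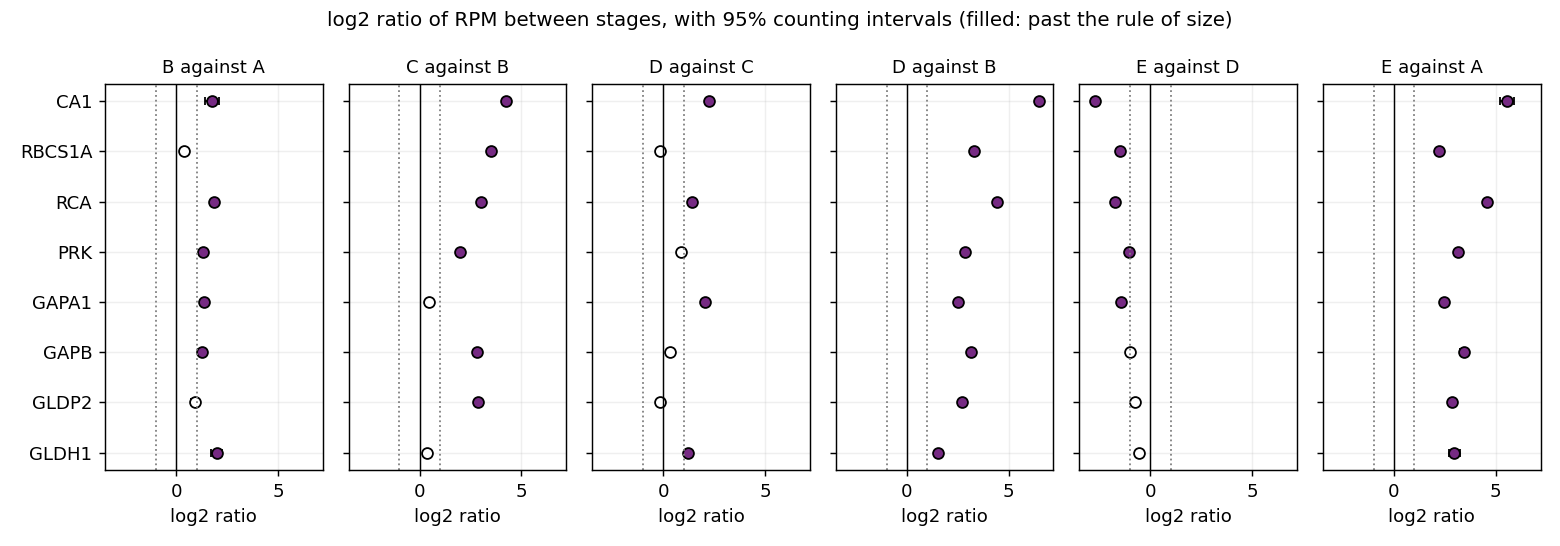
The log2 ratio of RPM between 2 stages for each of the 8 genes in 6 comparisons, with exact 95% counting intervals and dotted lines at 2-fold; filled points passed the rule of size. All 8 points are filled and positive for D against B and E against A, and all 8 lie below 0 for E against D.

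Stage D set directly against stage B, without stage C, gave the same direction for the whole set. All 8 genes rose, where 10.5% of all genes were called higher and 19.5% lower. Their median log2 difference was 3.0, against -0.29 for all genes, and the smallest was GLDH1 at 2.92-fold (2.74 to 3.11). CA1 was 90.6-fold higher in stage D (84.2 to 97.5) and RCA 21.7-fold (21.4 to 22). The remaining 5 genes lay between 5.69-fold for GAPA1 and 9.87-fold for RBCS1A (9.35 to 10.4).

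In the mature leaf, all 8 genes had lower values than in stage D, and 5 passed the rule, where 6.65% of all genes were called lower and 13.1% higher. Their median log2 difference was -1.25, against 0.28 for all genes. CA1, RCA, RBCS1A, GAPA1 and PRK fell, with PRK closest to the rule at 2.07-fold lower (2.04 to 2.1). GAPB was just outside it, at 1.98-fold lower (1.91 to 2.05). With median-of-ratios scaling GAPB and GLDP2 passed as well, so 7 of the 8 fell, where 10.2% of all genes were called lower, and their median was -1.61. Under a 4-fold rule only CA1 fell, where 2.06% of all genes were called lower.

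Across the whole series, all 8 genes rose in stage E against stage A, where 18.6% of all genes were called higher and 13.7% lower. The median log2 difference was 3.02, against 0.09 for all genes. Below CA1 and RCA came GAPB at 10.9-fold (9.46 to 12.6), PRK at 8.79-fold (8.36 to 9.25), GLDH1 at 7.76-fold (6.47 to 9.39) and GLDP2 at 7.33-fold (6.42 to 8.40). The counting intervals of these last 3 overlap in part, so their order is not set by the counts. GAPA1 followed at 5.41-fold (5.21 to 5.62) and RBCS1A at 4.62-fold (4.17 to 5.14). Comparisons that share a stage are not independent of one another.

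Loci of 1 enzyme can share reads where their sequences are alike, so CA1, RBCS1A, GAPA1, GLDP2 and GLDH1 were also summed with the other measured loci of their enzymes, an alternative chosen after the values had been seen. GAPA1 held 57.4% of the reads of both GAPA loci at A, 57.2% at B, 56.5% at D and 61.8% at E, but 18.6% at C, where GAPA2 (AT1G12900) held 81.4%. GLDP2 held 71.2% of the P-protein reads in stage C and 37.1% to 49.0% in the other stages. RBCS1A held 63.4% of the small subunit reads in stage C and 32.0% to 47.7% elsewhere. Of 11 enzyme families with loci on more than 1 Arabidopsis chromosome, 9 had the highest share at loci of the lowest-numbered of those chromosomes in stage C. The part of this shift in the stage C values of single genes was not tested.

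**Figure D3:**
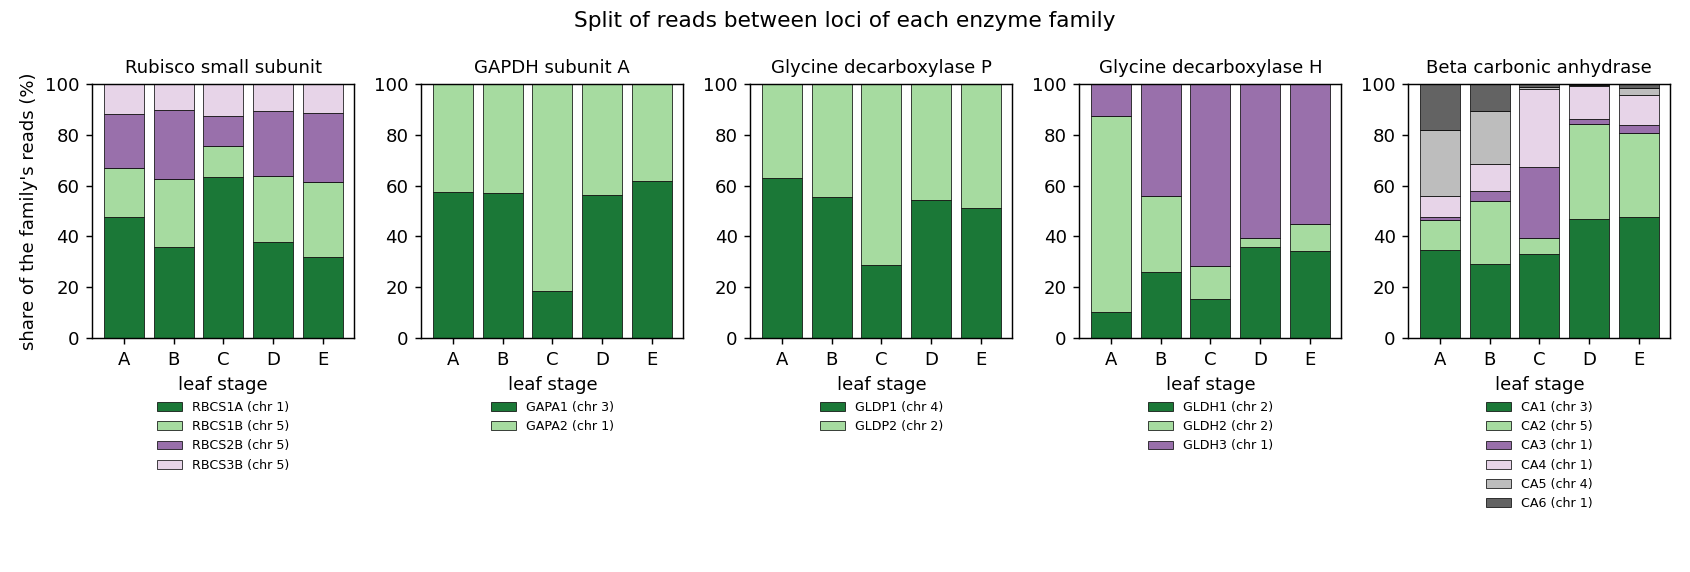
Share of each family's reads (%) held by each locus, by leaf stage, for 5 enzyme families, with the Arabidopsis chromosome of each locus. The GAPDH subunit A bar for stage C is split 18.6% to 81.4%, whereas GAPA1 holds 56.5% to 61.8% in the other stages.

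Both GAPA loci together had 884 RPM at A, 2295 at B, 9750 at C, 13234 at D and 4440 at E, and the sum was 4.25-fold higher in stage C than in stage B (4.2 to 4.30). The 4 small subunit loci summed to 139 RPM at A, 241 at B, 1518 at C, 2246 at D and 955 at E. With the sum, the highest stage was D and not C, for the small subunit as for the P-protein, whose 2 loci summed to 1077 RPM in stage D, against 772 RPM in stage C. In stage C against stage B the sums gave smaller ratios than the single loci for the small subunit, at 6.30-fold (6.09 to 6.52) against 11.2-fold for RBCS1A, and for the P-protein, at 4.63-fold (4.44 to 4.83) against 7.38-fold for GLDP2. In stage D against stage B the sums gave 9.32-fold for the small subunit (9.02 to 9.63), 5.77-fold for GAPA (5.70 to 5.83) and 6.46-fold for the P-protein (6.20 to 6.72), close to the single loci. For the carbonic anhydrases the sum was 56.0-fold higher in stage D than in stage B (53.9 to 58.3), against 90.6-fold for CA1 alone, and for the H-protein 2.11-fold (2.04 to 2.18), against 2.92-fold for GLDH1 alone. With sums in place of CA1, RBCS1A, GAPA1, GLDP2 and GLDH1, and with RCA, PRK and GAPB as single loci, all 8 passed the rule in stage C against stage B. Of all genes, each taken as a single locus, 15.3% were called higher there. In stage D against stage C, 2 of the 8 passed, the carbonic anhydrase sum and RCA. Of all genes as single loci, 17.4% were called higher there, a share not far from that of the 8. No such share was computed for summed families.

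**Figure D4:**
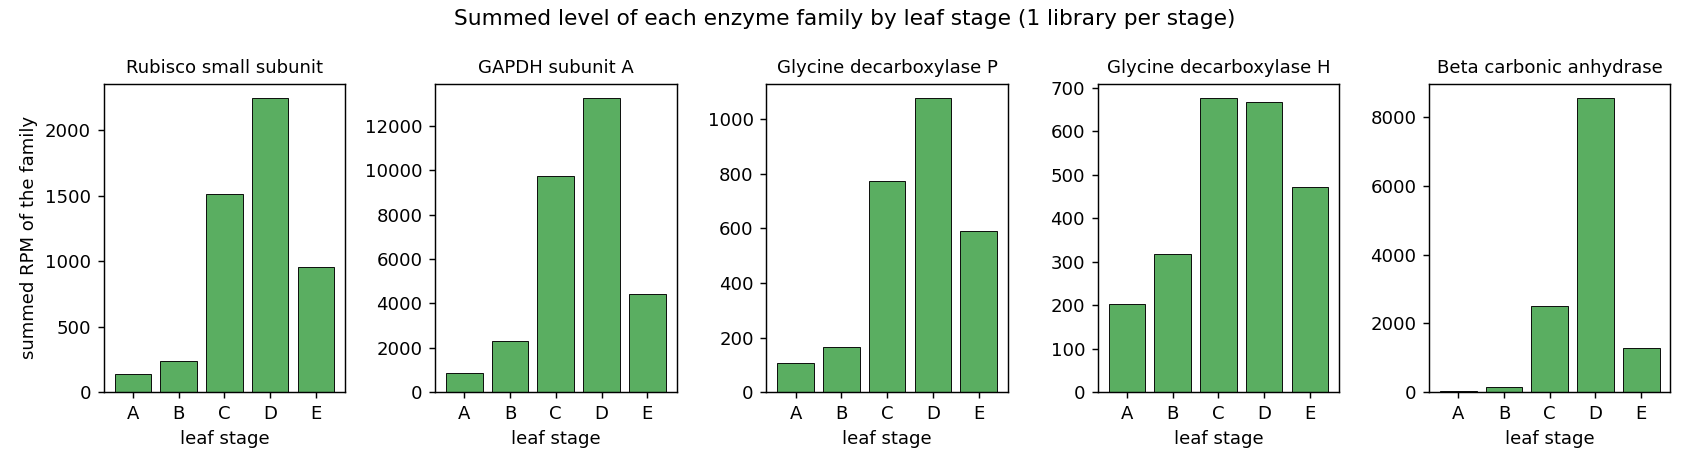
Summed RPM of all measured loci of 5 enzyme families by leaf stage, each panel on its own axis that starts at 0, 1 library per stage. Of the 5 families, 4 are highest in stage D; the glycine decarboxylase H family has 668 RPM in stage D, against 676 RPM in stage C.

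Within the H-protein family GLDH1 and GLDH2 took opposite courses. GLDH2 (AT2G35120) had 155 RPM at A, 94.6 at B, 86.5 at C, 22.7 at D and 50.1 at E, highest where GLDH1 was lowest. It fell 4.18-fold in stage D against stage B (3.73 to 4.69) and 3.10-fold in stage E against stage A (2.80 to 3.43). GLDH3 (AT1G32470) had 25.9 RPM at A, 140 at B, 485 at C, 406 at D and 260 at E. GLDH2 held 3.39% of the H-protein reads in stage D, against 76.9% in stage A. In stage B against stage A the sum differed 1.57-fold (1.47 to 1.67), and the call for GLDH1 was lost.

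Of the other 5 carbonic anhydrase loci, 4 rose and 0 fell in stage D against stage B. Of all genes, 10.5% were called higher and 19.5% lower in that comparison. CA2 (AT5G14740), another abundant leaf isoform in Arabidopsis, had 4.55 RPM at A, 38.1 at B, 155 at C, 3179 at D and 425 at E. CA4 (AT1G70410) had 3.03 RPM at A, 16.2 at B, 773 at C, 1098 at D and 152 at E. Both rose more than 60-fold in stage D against stage B, CA2 by 83.4-fold (77.1 to 90.4) and CA4 by 67.8-fold (60.1 to 76.8). CA3 (AT1G23730) fell to 168 RPM in stage D, against 691 RPM in stage C, its highest stage, but had 5.92 RPM in stage B. It held 27.6% of the carbonic anhydrase reads in stage C and 1.33% to 3.88% in the other stages. CA5 (AT4G33580) and CA6 (AT1G58180) stayed under 60 RPM in every stage. The 6 loci summed to 8547 RPM in stage D, against 153 RPM in stage B.

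The other genes of the pathways were taken from lists written from general knowledge of Arabidopsis loci, with earlier results of these data known, and all 97 listed loci were measured. Of the other 13 Calvin cycle enzyme genes, 12 rose and 0 fell in stage D against stage B, with a median log2 difference of 1.82. The rule called 10.5% of all genes higher and 19.5% lower there. Sedoheptulose-bisphosphatase (SBPASE, AT3G55800), which commits carbon to regeneration of the acceptor, rose 9.93-fold (9.44 to 10.5), with 959 RPM in stage D, against 96.5 RPM in stage B. The plastid aldolase FBA1 (AT2G21330) rose 8.46-fold (7.52 to 9.53). In stage E against stage D, 7 of the 13 fell and 0 rose, where 6.65% of all genes were called lower and 13.1% higher. In stage E against stage A 12 rose and 0 fell, where 18.6% of all genes were called higher and 13.7% lower. SBPASE again led, at 19.1-fold (16.6 to 22).

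Of 12 genes for rubisco's other subunits, its folding and its assembly, 6 rose and 0 fell in stage D against stage B. The share of all genes called higher there was 10.5%, and 19.5% were called lower. The chloroplast-encoded large subunit (rbcL, ATCG00490) had 4.71 RPM at A, 20.2 at B, 30.3 at C, 48.7 at D and 78.8 at E, and so was highest in the mature leaf, in libraries selected for poly(A) RNA, which does not target chloroplast transcripts. The chaperonin subunit CPN60B1 (AT1G55490), which folds the large subunit, fell 3.70-fold in stage D against stage C (3.62 to 3.77), with 801 RPM in stage D, against 2961 RPM in stage C. It had 1081 RPM in stage B, so its difference in stage D against stage B was short of the rule. Its locus is on Arabidopsis chromosome 1, which had a raised share of reads in stage C. The small assembly chaperones RBCX1 (AT4G04330) and RBCX2 (AT5G19855) moved in opposite directions in the mature leaf. In stage E against stage D, RBCX1 rose 6.77-fold (5.93 to 7.75) and RBCX2 fell 13.9-fold (11 to 17.9).

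Regulators of the cycle were taken as 12 genes for CP12 proteins, which bind PRK and the dehydrogenase in the dark, and for the thioredoxin system that activates Calvin cycle enzymes in light. Of these, 2 rose in stage B against stage A, where 7.47% of all genes were called higher, and 0 after scaling, where 5.36% were. In stage D against stage B 9 rose and 0 fell, where 10.5% of all genes were called higher and 19.5% lower. The thioredoxins TRXM1 (AT1G03680) and TRXM4 led them, TRXM1 at 7.15-fold (6.75 to 7.58). TRXM4 (AT3G15360) rose 5.03-fold there (4.85 to 5.22), with 1068 RPM in stage D, against 212 RPM in stage B. In stage C against stage B, 4 of the 12 fell and 2 rose, where 23.0% of all genes were called lower and 15.3% higher, so the counts are not far from the background. CP12-2 (AT3G62410) had 0.63 RPM, or 9 reads, in stage C, against 18.5 RPM in stage B, and had 36.0 RPM in stage D. CP12-1 (AT2G47400) rose to 38.5 RPM in stage C, against 15.0 RPM in stage B. Of the CP12 reads, CP12-1 held 90.3% and CP12-2 1.48% in stage C, against 43.3% and 53.6% in stage B. The 3 CP12 loci summed to 42.6 RPM in stage C, against 34.6 RPM in stage B, a 1.23-fold difference short of the rule. The part of a shift of reads between loci in these 2 single-gene calls was not tested. CP12-3 (AT1G76560) rose to 33.8 RPM in stage E, against 2.20 RPM in stage D.

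Around the glycine decarboxylase members, 5 of the 8 other genes of the complex and of serine hydroxymethyltransferase rose in stage D against stage B and 1, GLDH2, fell. Among all genes, 10.5% were called higher and 19.5% lower in that comparison. The P-protein 1 gene (GLDP1, AT4G33010) rose 6.32-fold (5.99 to 6.68) and serine hydroxymethyltransferase 1 (SHM1, AT4G37930), its partner enzyme in the mitochondrion, 6.09-fold (5.87 to 6.33). Of 21 other photorespiratory genes, 17 rose and 1 fell in stage D against stage B, with a median log2 difference of 2.26. The 21 hold AT5G36790 and AT5G36700 as separate genes, although their values were nearly equal in every stage (ratio 0.987 to 1.0). The peroxisomal alanine:glyoxylate aminotransferase AGT1 (AT2G13360) rose 13.9-fold (12.7 to 15.2) and GGT2 (AT1G70580), a glutamate:glyoxylate aminotransferase, 12.4-fold (11.9 to 12.9). The gene that fell was GOX3 (AT4G18360), of the glycolate oxidase family, at 2.70-fold (2.53 to 2.89).

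In the mature leaf, 13 of these 21 genes fell against stage D and 2 rose, GOX3 and catalase 2. Of all genes, 6.65% were called lower and 13.1% higher at this step. The mitochondrial carrier BOU (AT5G46800), needed for glycine decarboxylase activity in Arabidopsis, fell 8.90-fold (8.06 to 9.86), with 32.5 RPM in stage E, against 290 RPM in stage D. Catalase 2 (CAT2, AT4G35090), which removes the hydrogen peroxide made by glycolate oxidase, rose 3.59-fold (3.56 to 3.62) to 14102 RPM in stage E, against 3932 RPM in stage D. GOX3 had 300 RPM in stage E, against 73.0 RPM in stage D. Over the whole series 18 of the 21 rose in stage E against stage A and 0 fell, where 18.6% of all genes were called higher and 13.7% lower. Hydroxypyruvate reductase 1 (HPR1, AT1G68010) rose 18.4-fold (17.0 to 19.9).

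Related reactions outside the cycle were covered by 13 genes. Of these 13 genes for cytosolic glycolytic enzymes, the plastid glycolytic dehydrogenases GAPCP1 and GAPCP2, and phosphoenolpyruvate carboxylase, 2 rose and 3 fell in stage D against stage B, shares near those of all genes (10.5% higher and 19.5% lower). The median log2 difference of the 13 was 0.07, or 0.46 after scaling. GAPCP1 (AT1G79530) and GAPCP2 (AT1G16300), which serve plastid glycolysis, fell 9.48-fold (8.0 to 11.3) and 12.2-fold (10.1 to 14.8). The cytosolic fructose-1,6-bisphosphatase (CYFBP, AT1G43670), which directs exported triose phosphate to sucrose, rose 26.0-fold (23.0 to 29.5), with 416 RPM in stage D, against 16.0 RPM in stage B. Of 5 transcription factor genes known to promote chloroplast development or light responses, 0 rose in stage D against stage B. GLK2 (AT5G44190) and HY5 (AT5G11260), 2 of the 5, fell. Median-of-ratios scaling, with 11.5% of all genes called lower, removed both calls. GNC (AT5G56860) and CGA1 (AT4G26150) could not be called, as they stayed below the 5 RPM of the rule. Their highest values were 1.93 RPM in stage E and 2.53 RPM in stage A.

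Antenna and photosystem genes and the plastocyanin gene PETE1, listed as mesophyll markers, were highest in stage D as a sum, as the 8 genes were. The 10 markers, all measured and none at 0, summed to 3520 RPM at A, 8038 at B, 26697 at C, 48453 at D and 8533 at E. Of these sums PSAF (AT1G31330) alone held 24809 RPM in stage D and 6633 RPM in stage E. In stage D against stage C 5 of the 10 rose and 3 fell, where 17.4% of all genes were called higher and 19.5% lower. The 3 that fell, LHCB1.1, LHCB1.3 (AT1G29930) and PETE1 (AT1G76100), were highest in stage C. Their loci are on Arabidopsis chromosome 1, which had a raised share of reads in stage C. LHCB1.3 had 365 RPM at B, 7935 at C and 1647 at D, and PETE1 had 3.26, 339 and 21.1 RPM. PSAF and LHCA3 (AT1G61520), also on chromosome 1, rose in stage D against stage C. The part of the stage C shift in these calls was not tested. In stage D against stage B all 10 rose, with a median log2 difference of 2.72, where 10.5% of all genes were called higher. In stage E against stage D all 10 fell, with a median of -3.11, where 6.65% of all genes were called lower. In stage E against stage A 3 of the 10 rose, with a median of -0.05, where 18.6% of all genes were called higher. After scaling 2 rose and 1 fell, with a median of -0.17, where 16.5% of all genes were called higher and 15.6% lower. All 8 carbon fixation and photorespiration genes had risen in this comparison. LHCB1.1 (AT1G29920), an antenna protein of photosystem II, had 45.6 RPM in stage E, against 86.7 RPM in stage A, short of the rule without scaling. The 3 that rose without scaling were PSAF, PSBO1 (AT5G66570) and PSAD1 (AT4G02770). PSAF had 6633 RPM in stage E, against 1697 RPM in stage A. The 3 meristem markers summed to 1.34 RPM in stage D, against 36.0 RPM in stage A. The 6 epidermis markers summed to 444 to 605 RPM in stages B to E, against 944 RPM in stage A, and the 3 phloem markers to 285 RPM in stage E, against 21.2 RPM in stage A. PDF1, an epidermis marker, was at 0 in stage E, but it was low throughout, with 9.3 RPM at B, its highest, and 0.37 at D. Of the 6 epidermis markers, 0 rose and 0 fell between stages D and E, with a median log2 difference of 0.39. In stage D against stage B 4 fell and 1 rose, with a median of -1.17, where 19.5% of all genes were called lower and 10.5% higher. After scaling 2 fell and 1 rose there, where 11.5% of all genes were called lower. In stage C against stage B 3 fell and 0 rose, where 23.0% of all genes were called lower. The same counts held in stage E against stage A, where 13.7% were called lower. The 5 xylem markers summed to between 130 RPM (stage A) and 569 RPM (stage C), and the 5 guard cell markers to between 98.6 RPM (stage C) and 375 RPM (stage E). The part of a changing mix of cell types in the results above was not tested.

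**Figure D5:**
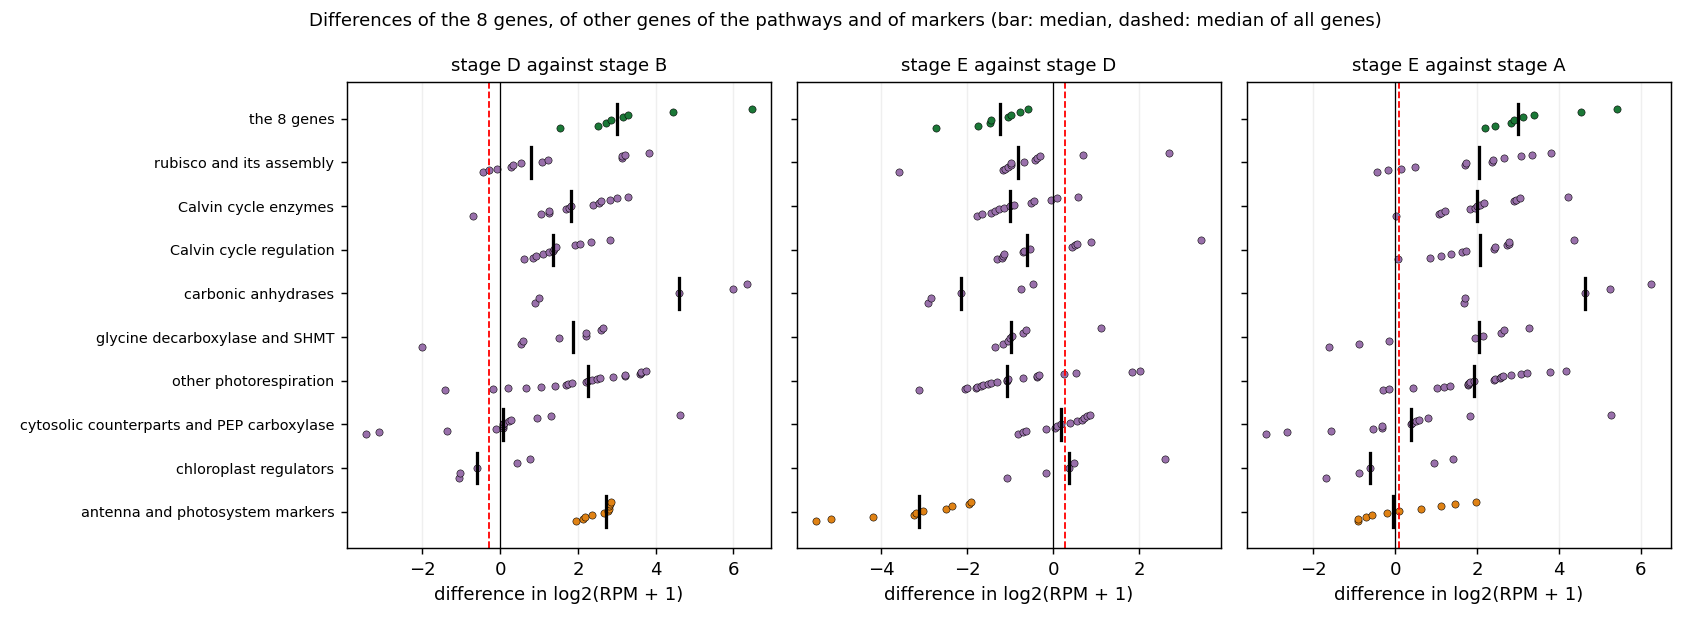
Difference in log2(RPM + 1) of each gene (points) in 3 comparisons, for the 8 genes, the other genes of each list and the 10 mesophyll markers. The markers are labelled antenna and photosystem markers, but they include the plastocyanin gene PETE1. Bars are medians and the dashed line is the median of all genes. In stage E against stage A the 8 genes have a median of 3.02 and the markers one of -0.05.

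Profiles were compared as log2(RPM + 1) centred on each gene's mean over the 5 stages, among genes that reached 50 RPM. The gene nearest to the median profile of the 8 was RBCS3B (AT5G38410), another rubisco small subunit gene, with a root mean square distance of 0.16 on the log2 scale. It had 16.5 RPM at A, 25.1 at B, 194 at C, 240 at D and 110 at E. Next came xyloglucan endotransglucosylase/hydrolase 15 (AT4G14130), a cell wall enzyme gene, at 0.20, and a gene of the peroxisomal membrane 22 kDa family (AT4G03410), at 0.23. A gene of the PLC-like phosphodiesterases superfamily (AT4G34920) was the fourth, at 0.24. The gene described as inorganic carbon transport protein-related (AT1G70760) was the fifth, at 0.24, and also the nearest to GAPB. Of the 10 nearest genes, 1 was in the pathway lists. Glutamine synthetase 2 (AT5G35630), which refixes photorespiratory ammonia, was the nearest to GAPA1, at 0.12. A putative phosphoglucomutase gene (AT1G70820) was the nearest to CA1, at 0.49, and to RCA, at 0.41. The nearest to RBCS1A was an aminotransferase-like gene (AT1G50090), at 0.20, and to PRK an oxidoreductase family gene (AT1G57770), at 0.16. For GLDP2 it was AT4G03410, at 0.097, and for GLDH1 vitamin E pathway gene 5 (AT5G04490), at 0.16. Without stage C, an alternative chosen after the values had been seen, RBCS2B (AT5G38420) was the nearest to the median profile, at 0.04, and 1 of the 10 nearest genes was shared with those of all 5 stages. Within the set, GAPB lay closest to the median profile, at 0.14, and CA1 farthest, at 1.41.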

How the data were processed

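Poly(A) RNA of 5 leaf stages was sequenced, and the labels name 2 lanes per stage, called biological replicates there, which the deposited table holds as 1 column per stage. Per the file headers the values are RPKM, but all deposited values of a stage (100%) come out as whole reads, to within 0.001, when divided by the value of 1 read, whatever the gene. They are therefore RPM, scaled by the authors to library size without gene length, and whole reads were recovered. For the aligner, the assembly and how multiply matching reads were assigned, nothing is given in the sources used here. No count test was possible with 1 column of values per stage.

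Genes reaching 1 RPM in a stage were put through the rule of size (pseudocount of 1 RPM). Members and lists were chosen with earlier results of these data known. The genes named are all 8 members, loci of the same enzyme family, up to 2 called genes per list, comparison and direction, and nearest profiles. LHCB1.1, LHCB1.3, PETE1, PSAF, LHCA3, PSBO1, PSAD1 and PDF1, from the marker lists, were named after their values were seen. So were GNC and CGA1, from the list of transcription factor genes. Alternatives tried were a pseudocount of 0.1 or of 5, the higher stage without minimum or at 20 RPM, a 4-fold rule, a counting-interval rule, and median-of-ratios scaling over all genes or within each chromosome (plastid and mitochondrial loci keep the scaling over all genes). Calculations used Python 3.11.15, numpy 2.4.6, pandas 2.3.3 and scipy 1.17.1, with scripts tested on simulated data.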

Additional observations from a re-analysis of the deposited data

How the results depend on the processing

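The count of the 8 genes called was within 1.5 times of the reported one in all 6 comparisons under pseudocounts of 0.1 and 5, without a minimum or with 20 RPM for the higher stage, under the counting-interval rule and under both scalings. The 4-fold rule gave 0 genes in stage B against stage A (6 at 2-fold), 2 in stage D against stage C (4 at 2-fold) and 1, CA1, in stage E against stage D (5 at 2-fold). Sums over enzyme families gave 2 genes in stage D against stage C. Of 48 single differences, 46 kept their sign under pseudocounts and scalings; the exceptions are RBCS1A and GLDP2 in stage D against stage C, neither of them called, and the cause was not tested. No paired analysis was possible because each stage has 1 column of values. For CA1 in stage A, 78 reads limit the precision of its ratios. A floor of 3 reads was 0.505 RPM in stage A and 0.181 to 0.232 RPM in the other stages.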

Other observations

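Some loci of the same enzyme had nearly equal values in every stage. The 2-phosphoglycolate phosphatase loci AT5G36790 and AT5G36700, which act on the first product of rubisco's oxygenase reaction, had a ratio between 0.987 and 1.0 over the 5 stages. The rubisco small subunit loci RBCS1B and RBCS2B had a ratio between 0.892 and 1.08. For GAPA1 and GAPA2 the ratio lay between 1.3 and 1.62 in stages A, B, D and E and was 0.229 in stage C.

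Mitochondrial lipoamide dehydrogenase is the L-protein of glycine decarboxylase. Its locus MTLPD1 (AT1G48030) held 86.2% of the reads of its 2 loci in stage C and 30.9% to 44.7% in the other stages. HY5, a light-response regulator, had 0 reads in stage C, which allows up to 0.210 RPM, against 23.6 RPM in stage B, and had 11.1 RPM in stage D.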
